A study of Mus musculus with 20 samples.

Results

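The 42 genes described here build and police the mitotic spindle and time cell division. They cover the spindle assembly checkpoint, the outer kinetochore, the Aurora and Polo-like kinases, the cyclins with Cdk1 and its activating phosphatases, the anaphase machinery, the spindle midzone and a pair of proliferation markers. They were chosen by symbol from the 22066 gene symbols of the deposited count table and not by a threshold on their values. All 42 were counted in every one of the 20 libraries, with a lowest count of 5 (Aurkc in VCR libraries), and all 42 were among the 16534 genes that passed the filter on low counts. 4 of them, Ccna1, Aurkc, Ccnb3 and Cdc25c, were set apart as paralogs that germ cells are known to use.

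Testis RNA from male NSG mice (genotype NOD scid gamma), aged 6 weeks at the start, was profiled in 5 groups of 4 samples. NSG mice lack functional T, B and NK cells, so human cells can grow in them. The NC group held normal controls given saline. ALL mice carried a patient-derived xenograft of B-cell acute lymphoblastic leukaemia (B-ALL), made by injecting 400000 leukaemia cells into the tail vein, and received saline. VCR mice received vincristine sulfate at 0.5 mg/kg into the peritoneum once a week for 3 weeks, and their labels name no leukaemia cells. The series' design text, however, speaks of PDX (patient-derived xenograft) mice for every group, NC and VCR included, so whether these 2 groups had cells engrafted is not settled by the sources used here. Low-VCR and High-VCR mice carried the xenograft, received the same vincristine course from day 69 after engraftment, and were sorted by how far leukaemia cells had entered the peripheral blood, low or high. RNA was taken from whole frozen testis, which the labels describe as mixed testicular cells. In such bulk samples fewer cells of a type and less RNA per cell cannot be told apart. Nothing in the labels ties each sample to its own mouse, and the p-values therefore reflect only how far these samples scatter, which may be technical. The library numbers of NC and VCR were all lower than those of ALL, Low-VCR and High-VCR. In ALL against NC, and in Low-VCR or High-VCR against VCR, engraftment and library number therefore cannot be told apart. The differences of fold changes likewise set a response in one set of numbers against a response in the other.

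Vincristine binds tubulin and blocks the assembly of spindle microtubules. In a dividing cell, kinetochores without microtubules recruit the checkpoint proteins Bub1, Bub1b, Bub3, Mad1l1, Mad2l1 and Ttk, which hold Cdc20 inactive, keep cyclin B and securin from destruction, and so stop the cell before anaphase. In the testis, mitotic divisions take place in spermatogonia, whereas the meiotic divisions of spermatocytes draw on much of the same machinery and on germ cell paralogs such as cyclin A1 (Ccna1), Aurora C (Aurkc), cyclin B3 (Ccnb3) and Cdc25c.

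Many genes of the mitotic programme share a pair of promoter elements, so the promoters of the members were searched for them. The CHR (cell cycle genes homology region), bound by the DREAM and MuvB complexes, was searched as TTTGAA or its reverse complement TTCAAA, and the CCAAT box, bound by NF-Y, as CCAAT or ATTGG. RefSeq promoter windows of build GRCm38.p6, from 250 bases before to 50 bases after each start, were matched for 36 members (40 windows). Windows for Aurkb, Ccna2, Cdc25c, Incenp, Spc24 and Tpx2 were not used here. The CHR was found in 55% of member windows and in 17.9% of all 32851 windows of the same length. The CCAAT box was found in 67.5% of member windows and 37.4% of all windows, and both together in 47.5% and 6.95%. By gene, 20 of 36 members held a CHR and 25 of 36 a CCAAT box. A match is a description of the letters and not a binding site.

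The 100 bases before the start are shown for 4 of the mitotic genes and 3 of the germ cell paralogs. Of the pairs whose ratios are tested below, only Ccnb3 and Ccnb1 have both genes shown. Capitals mark the searched letters, read 5′ to 3′ on the strand of the gene. The positions are chr9:70421555-70421654, minus strand, for Ccnb2, chr13:100786487-100786586, minus, for Ccnb1, chr4:118437344-118437443, minus, for Cdc20 and chr10:69352913-69353012, minus, for Cdk1. For the germ cell paralogs they are chr3:55055056-55055155, minus, for Ccna1, chr7:6995285-6995384, plus, for Aurkc and chrX:7041620-7041719, minus, for Ccnb3.
Ccnb2: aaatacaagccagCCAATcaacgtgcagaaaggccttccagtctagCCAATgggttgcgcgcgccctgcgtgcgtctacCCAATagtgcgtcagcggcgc
Ccnb1: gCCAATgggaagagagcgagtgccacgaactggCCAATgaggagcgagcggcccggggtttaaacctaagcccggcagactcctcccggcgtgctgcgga
Cdc20: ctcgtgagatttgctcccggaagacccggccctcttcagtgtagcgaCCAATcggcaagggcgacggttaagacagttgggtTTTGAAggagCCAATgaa
Cdk1: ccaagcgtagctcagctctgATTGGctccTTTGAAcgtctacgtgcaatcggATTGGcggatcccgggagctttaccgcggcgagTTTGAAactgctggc
Ccna1: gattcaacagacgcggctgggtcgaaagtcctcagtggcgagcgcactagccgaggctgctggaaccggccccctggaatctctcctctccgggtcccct
Aurkc: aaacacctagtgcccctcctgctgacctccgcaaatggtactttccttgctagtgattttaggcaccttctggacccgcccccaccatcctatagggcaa
Ccnb3: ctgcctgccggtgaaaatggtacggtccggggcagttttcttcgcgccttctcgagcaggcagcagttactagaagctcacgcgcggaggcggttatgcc

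Ccnb2 held 3 CCAAT boxes in these 100 bases, starting 87, 54 and 21 bases before the start, and a CHR 5 bases after it. Cdk1 held 2 CHR and 2 CCAAT matches in the stretch shown. None of the 3 germ cell paralogs held a match in the 100 bases shown, and no CHR was found in the full windows of Ccna1, Aurkc or Ccnb3. The full windows of Ccna1 and Aurkc each held 1 CCAAT box, 107 bases before and 25 bases after the start. Ccnb1 had CCAAT boxes and no match to the CHR letters. Genes that rose or fell in VCR against NC occurred with and without these letters. Cenpa, which rose, and Plk1, which fell, each held both. Mad1l1, which rose, and Nuf2, which fell, held neither. Whether the letters go with the direction of change was not tested.

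Depth was 9.43 to 16.4 M (mega) counts per library. The share of counts from mitochondrial genes was 1.78 to 2.6% in the 8 libraries from mice without vincristine and 4.69 to 11.9% in the 12 libraries from treated mice. Markers of the testis were present in all groups. Summed over 11 Sertoli cell genes, levels were 682 to 814 CPM (counts scaled to the size of the library, with TMM factors) without vincristine and 1956 to 3501 CPM with it. Over 12 genes of undifferentiated spermatogonia the sums were 42.3 to 57.6 CPM and 72.5 to 115 CPM. Over 7 genes of differentiating spermatogonia they were 465 to 507 CPM and 251 to 397 CPM. Single genes of both lists moved in either direction in VCR against NC (log2 fold changes from -2.03 to 2.25 and from -1.62 to 3.07). Over 9 genes of pachytene and diplotene spermatocytes the sums were 9482 to 10286.5 CPM and 242 to 6806 CPM. Over 8 genes of round spermatids they were 1525 to 1824 CPM and 19.4 to 908 CPM. No gene of these lists was at 0 in any group. Among leukocyte genes, S100a8 and Klrb1c were at 0 in both NC and ALL, S100a9 in NC and Cd8a in ALL. The libraries within the VCR and High-VCR groups spread widely: VCR 1 was the lowest of its group for 39 of the 42 genes, and High-VCR 2 the highest of its group for 37. The part of these shifts between cell types and libraries in the results that follow was not tested.

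In untreated testis the mitotic genes differed widely in level. Per kilobase of exon (union of exons, GENCODE annotation of GRCm38), the highest level in NC was that of Ccnb2, cyclin B2, at 155 ± 11.7 CPM per kb (SD, n = 4). Cdc20, which activates the anaphase-promoting complex, followed at 116.1 ± 4.79, then Plk1 at 75.4 ± 8.07 and Aurka, the spindle pole kinase, at 75.3 ± 0.8, which differed by less than their spread. The mitotic partners of the germ cell paralogs lay near the bottom of the order in 3 of the 4 pairs. Ccna1 stood at 29.6 ± 2.2 CPM per kb and Ccna2, the somatic cyclin A, at 2.39 ± 0.932. Cdc25c stood at 7.06 ± 0.823 and Cdc25b at 0.493 ± 0.308, while Aurkc (4.29 ± 0.229) and Aurkb (2.89 ± 0.269) were closer. The reverse held for B cyclins, with Ccnb3 at 0.992 ± 0.192 and Ccnb1 at 33.1 ± 1.67 CPM per kb. Cenpa was last at 0.197 ± 0.0854. Cenpa and Mad2l1 have a long union of exons in that annotation (5.86 and 8.39 kb), which lowers their values per kb.

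Most of these genes were lower after vincristine in mice with no leukaemia cells on their labels. In VCR against NC, 29 of the 42 fell and 2 rose at an adjusted p under 0.05 (edgeR's quasi-likelihood test, adjusted over all genes tested). Of all 16534 genes, 35.6% fell and 42.1% rose, so the 69% of members that fell stood above the share of all genes and the 4.76% that rose below it. The median log2 fold change of the members was -1.11, against 0.10 for all genes tested. Summed over the 42 genes, the share of all counts was 0.303% ± 0.00682 (SD, n = 4) in NC and 0.173% ± 0.0767 in VCR. In single VCR libraries it was 0.0873, 0.131, 0.244 and 0.231%, all below the lowest NC library (0.296%).

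**Figure D1:**
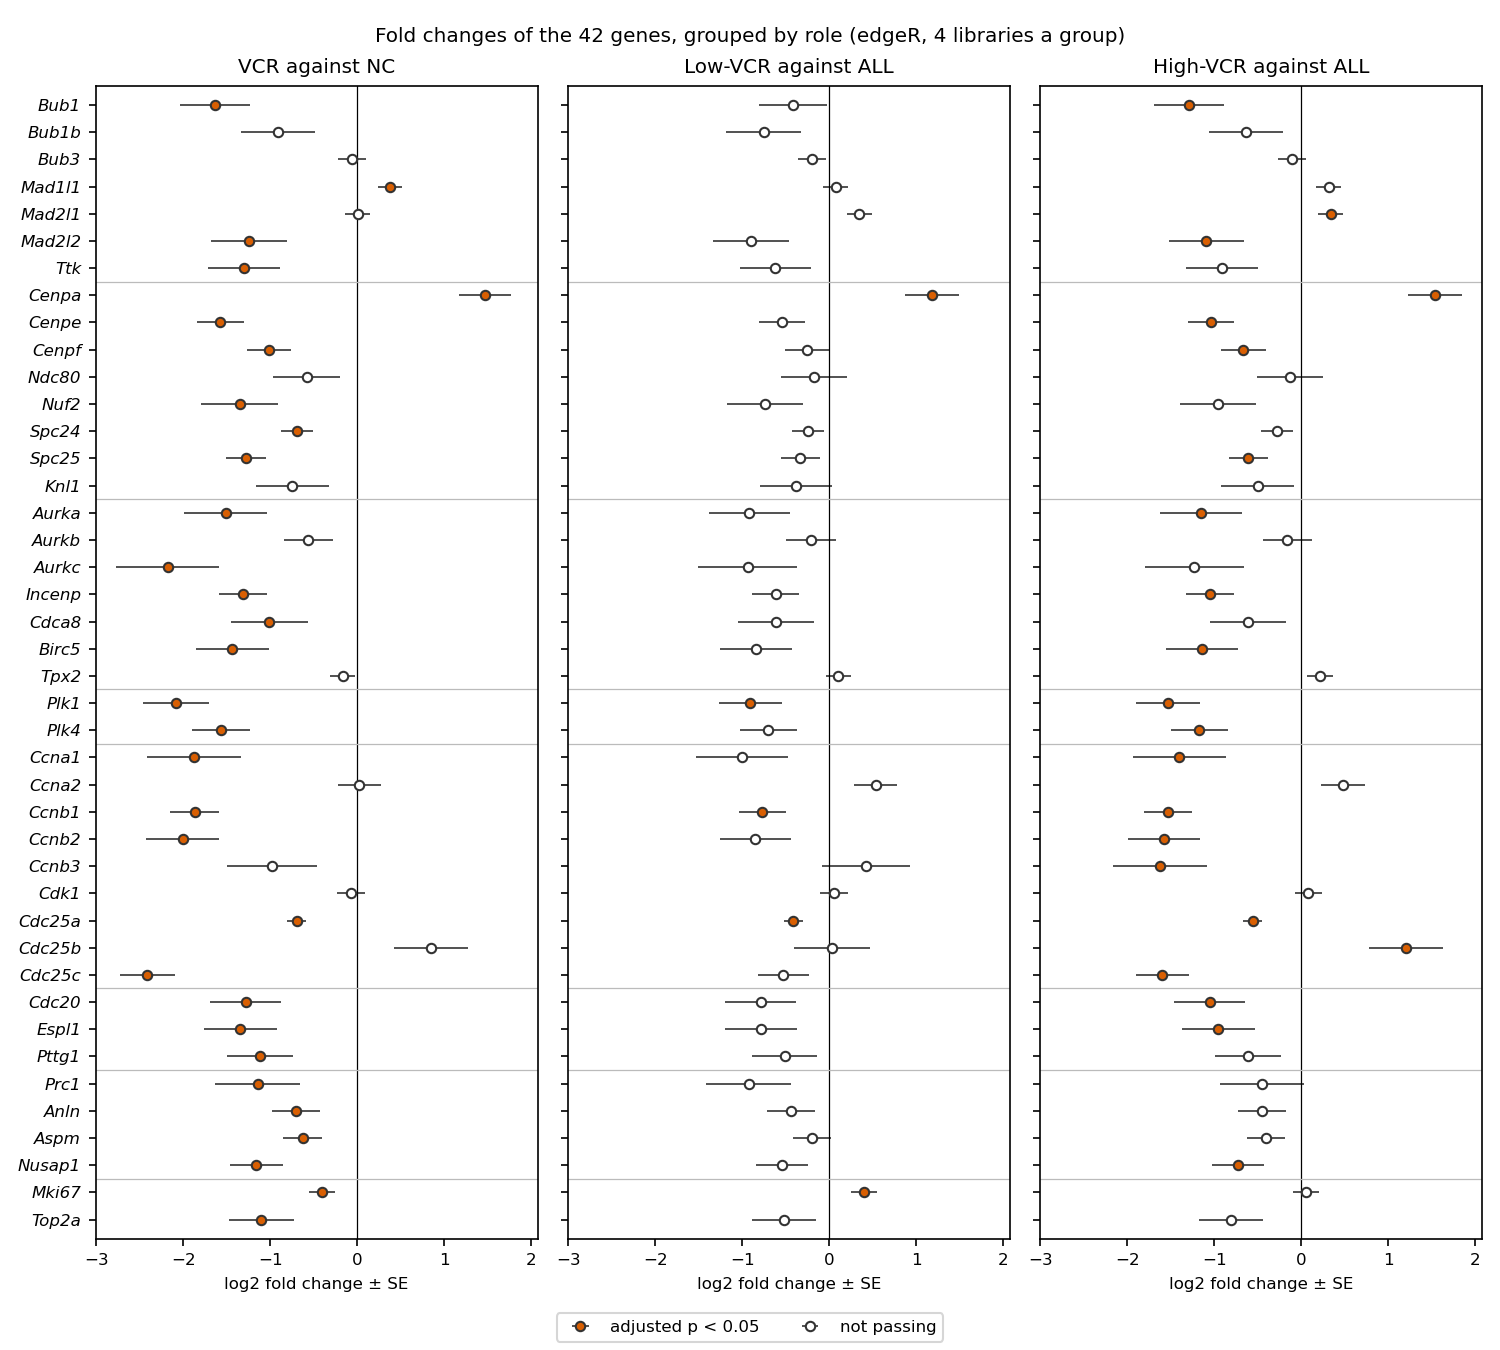
Log2 fold changes of the 42 genes (x axis, bars are standard errors from edgeR, 4 libraries a group) in VCR against NC, Low-VCR against ALL and High-VCR against ALL, with genes on the y axis grouped by role; filled points have an adjusted p under 0.05. Most filled points lie left of 0 in VCR against NC (29 of 31) and High-VCR against ALL (19 of 22). In Low-VCR against ALL 5 are filled. With library size alone, members lower in VCR, High-VCR and Low-VCR number 20, 12 and 0, where 4480, 3724 and 870 of all 16534 genes are lower. Members higher number 6, 7 and 6, where 8309, 8137 and 7239 of all genes are higher. When libraries are scaled on Sertoli cell genes no member is higher, where 1161, 758 and 413 of all genes are.

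Among checkpoint genes, Bub1, Ttk and Mad2l2 fell and Mad1l1 rose. Bub1, the kinase that marks unattached kinetochores, was at 93.4, 107, 109.1 and 114 CPM in NC and at 10.2, 21.1, 52.6 and 52.2 CPM in VCR. All VCR libraries lay below all NC libraries, and the log2 fold change was -1.64 ± 0.40 (± is the standard error throughout for fold changes; adjusted p = 0.00139). Ttk (Mps1), which starts checkpoint signalling, changed by -1.30 ± 0.42 (adjusted p = 0.00915), and Mad2l2, a HORMA-domain relative of Mad2, by -1.24 ± 0.44 (adjusted p = 0.0159). Mad1l1, the kinetochore anchor of Mad2, rose from 28.5 to 35.5 CPM in NC to 36.2 to 47.0 CPM in VCR (0.38 ± 0.14, adjusted p = 0.0205), without overlap of the groups, but its change was -1.49 when libraries were scaled on Sertoli cell genes. That call was lost without NC 3 or without VCR 3, and the call of Mad2l2 without VCR 2. Bub1b (-0.91 ± 0.43, adjusted p = 0.0615), Bub3 (-0.06 ± 0.16) and Mad2l1 (0.01 ± 0.15) did not pass. With 3 of 7 lower (42.9%), the checkpoint list lay near the 35.6% of all genes.

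Of 8 kinetochore genes, 5 fell (62.5%) and 1 rose (12.5%), where 35.6% of all genes fell and 42.1% rose. Cenpe, the kinesin that carries chromosomes to the spindle equator, was at 235, 211, 240 and 225 CPM in NC and at 40.8, 57.1, 102.6 and 105.3 CPM in VCR (-1.58 ± 0.27, adjusted p = 5.09e-05). The groups did not overlap. Spc25 (-1.28 ± 0.23), Nuf2 (-1.35 ± 0.44) and Spc24 (-0.69 ± 0.19), which form the microtubule-binding Ndc80 complex with Ndc80, also fell, whereas Ndc80 itself (-0.58 ± 0.38, adjusted p = 0.172) did not pass. Cenpf fell by 1.02 on the log2 scale, and Knl1, the scaffold that recruits Bub1, did not pass (-0.74 ± 0.42, adjusted p = 0.111). Cenpa, the histone H3 variant that defines the centromere, was low throughout, at 0.731, 1.4, 1.75 and 0.75 CPM in NC and at 3.81, 2.73, 2.29 and 4.03 CPM in VCR. All VCR libraries were above all NC libraries and the log2 fold change was 1.47 ± 0.30 (adjusted p = 0.0003), which turned to -0.41 on the Sertoli cell scale.

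Of the 7 Aurora kinases and partners 5 fell (71.4%), and both Polo-like kinases did, where 35.6% of all genes fell. Shares of lists this small are coarse. Aurka was at 188, 193, 191 and 190 CPM in NC and at 15.2, 48.3, 118 and 86 CPM in VCR (-1.51 ± 0.48, adjusted p = 0.00819). NC libraries were almost equal, and the VCR libraries spread widely below them. The chromosomal passenger genes Incenp (-1.31 ± 0.28), Birc5 (survivin, -1.44 ± 0.42) and Cdca8 (borealin, -1.01 ± 0.44) fell. Aurkb, the mitotic kinase of that complex, did not pass (-0.56 ± 0.28, adjusted p = 0.0786), nor did Tpx2, the activator of Aurka (-0.17 ± 0.15, adjusted p = 0.298). Plk1, which drives entry into and exit from M phase, was at 191, 150, 166 and 157 CPM in NC and 12.8, 32.7, 59.4 and 51.7 CPM in VCR. It fell by 2.08 ± 0.38 on the log2 scale, 4.23-fold (adjusted p = 8.93e-05), without overlap. Plk4, which controls centriole duplication, fell by 1.56 ± 0.33 on the log2 scale. The call of Cdca8 was lost when any one NC library, VCR 1 or VCR 2 was left out.

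Among cyclins and their regulators, cyclins B1 and B2 fell and Cdk1 did not pass. Ccnb1 was at 148, 134, 143 and 134 CPM in NC and 16.7, 36.1, 52.5 and 47.5 CPM in VCR (-1.87 ± 0.28, adjusted p = 1.22e-05). Ccnb2 was at 262, 233, 239 and 219 CPM in NC and 16.4, 35.5, 99.5 and 85.2 CPM in VCR (-2.01 ± 0.42, adjusted p = 0.00036). For both B cyclins every VCR library was below every NC library, with VCR 1 lowest. Cdk1, the kinase both of them activate, was at 28.5, 26.7, 33.2 and 30.6 CPM in NC and 23.8, 28.5, 32.1 and 29.4 CPM in VCR, and the groups overlapped (-0.07 ± 0.16, adjusted p = 0.712). Ccna2 did not pass either (0.03 ± 0.25, adjusted p = 0.93). The phosphatase Cdc25a fell by a smaller and more even step, from 58.4 to 71.4 CPM in NC to 37.2 to 44.4 CPM in VCR (-0.70 ± 0.11, adjusted p = 2.1e-05), and Cdc25b did not pass (0.85 ± 0.43, adjusted p = 0.0773).

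All 3 anaphase genes fell: Cdc20 (-1.28 ± 0.41), Espl1, the protease separase (-1.34 ± 0.42), and Pttg1, its inhibitor securin (-1.12 ± 0.38). Of all genes 35.6% fell, and shares of lists of 3 or 4 genes are coarse. All 4 genes of the spindle and midzone fell as well: Nusap1, which binds spindle microtubules (-1.16 ± 0.30), Prc1, which bundles those of the midzone (-1.15 ± 0.49), Anln, the anillin of the cleavage furrow (-0.70 ± 0.28) and Aspm, a protein of the spindle poles (-0.63 ± 0.22). The values of Prc1 and Anln overlapped between the groups, and the calls of Prc1, Anln and Aspm were lost without VCR 1 or without VCR 2, and those of Prc1 and Anln also without NC 2 or NC 3 (Prc1 also without NC 1). Top2a, the topoisomerase that untangles chromosomes, fell from 263 to 299 CPM in NC to 46.1, 81.6, 200 and 192 CPM in VCR (-1.10 ± 0.37, adjusted p = 0.0121). Mki67, which coats mitotic chromosomes and marks cycling cells, was at 88.3, 83.1, 104 and 97.9 CPM in NC and 58.8, 60.6, 70.2 and 92.8 CPM in VCR. VCR 4 lay inside the NC range, the log2 fold change was -0.40 ± 0.15 (adjusted p = 0.0203), and the call was lost without NC 3, VCR 1 or VCR 2.

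**Figure D2:**
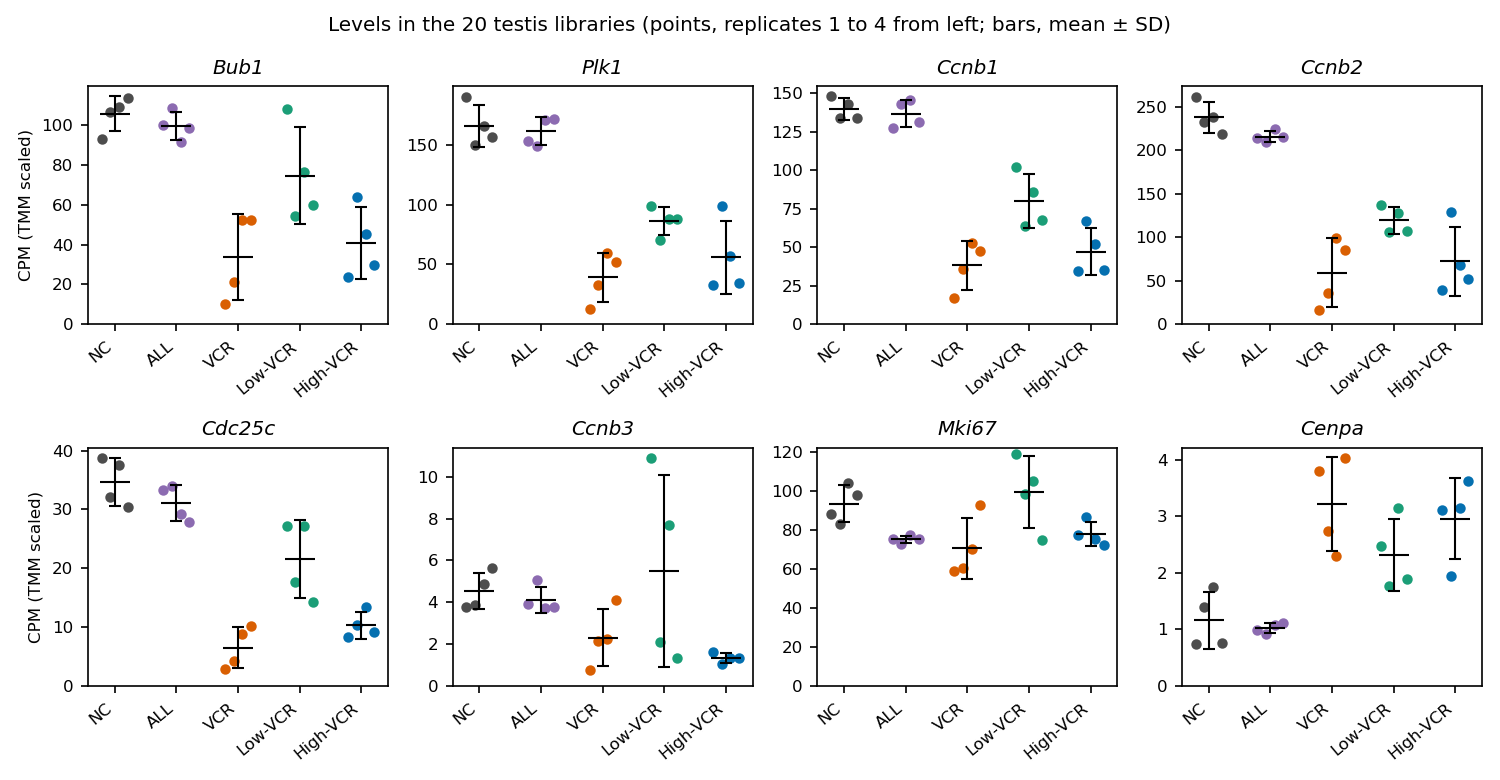
CPM (y axis, TMM scaled) of 8 of the genes in the 20 libraries (points, replicates 1 to 4 from left; bars, mean ± SD) by group on the x axis. The group means of Bub1, Plk1, Ccnb1, Ccnb2 and Cdc25c are low in VCR and High-VCR and between in Low-VCR. Libraries of Low-VCR and High-VCR overlap for all of these but Cdc25c. Ccnb3 splits the Low-VCR libraries (10.9 and 7.68 against 2.07 and 1.31 CPM). Cenpa is higher in treated than in untreated libraries, an order that reverses on the Sertoli cell scale.

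Leukaemia without the drug was not accompanied by a called change. In ALL against NC, none of the 42 genes passed in edgeR (0% of all genes tested were called), and none had an unadjusted p under 0.05, while 748 of all genes did. The members' log2 fold changes ran from -0.31 (Mki67) to 0.12 with a median of -0.06. DESeq2 called 19 genes over the whole table in this comparison and none of the 42. Mki67 was at 75.2, 72.9, 77.3 and 75.3 CPM in ALL, each below the lowest NC library (83.1 CPM), at an adjusted p of 1.

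In engrafted, treated mice with low infiltration, how many members passed depended on the fit. In Low-VCR against ALL, 2 of the 42 rose and 3 fell, where 36.4% of all genes rose and 15.2% fell, so both shares of the members (4.76% and 7.14%) were below those of all genes. The median of the members was -0.52 against 0.08 for all genes, and 33 of 42 estimates were below 0. The count rose to 25 (22 lower, 3 higher) when only ALL and Low-VCR were fitted, at a median of -0.51. It was 11 with the range of library numbers, low or high within each engrafted group, as a term. That term was used only in comparisons among ALL, Low-VCR and High-VCR. The shares of all genes called in these 2 fits are not given here. The count of members also rested on the scale. With DESeq2's size factors in edgeR 17 fell and 1 rose, where 4525 of all 16534 genes fell and 5080 rose. With library size alone none fell and 6 rose, where 870 of all genes fell and 7239 rose. With Sertoli cell scaling 40 fell, where 12979 of all 16534 genes did. Plk1 was at 154, 149, 171 and 172 CPM in ALL and 98.7, 70.3, 87.9 and 87.7 CPM in Low-VCR, without overlap (-0.91 ± 0.36, adjusted p = 0.0458). Ccnb1 (-0.77 ± 0.27, adjusted p = 0.0252) and Cdc25a (-0.41 ± 0.11, adjusted p = 0.00455) also fell. Cenpa rose (1.19 ± 0.31, adjusted p = 0.00427), but its change was -0.54 on the Sertoli cell scale. Mki67 rose from 72.9 to 77.3 CPM in ALL to 119, 98.6, 105.4 and 74.8 CPM in Low-VCR (0.40 ± 0.15, adjusted p = 0.0318), with Low-VCR 4 inside the ALL range, and its change was -1.32 on the Sertoli cell scale.

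When any 1 library of ALL or Low-VCR was left out, 2 or 3 of the 5 stayed called, 2 in the absence of ALL 2, ALL 3 or Low-VCR 2 and 3 in the other 5 fits. The call of Plk1 was lost in each of these 8 fits, that of Mki67 in all but the fit without Low-VCR 4, and that of Ccnb1 without ALL 2, ALL 3, Low-VCR 2 or Low-VCR 4. Cdc25a and Cenpa passed in all of them. Without both Low-VCR 1 and Low-VCR 3, 4 genes fell and none rose.

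At high infiltration the B cyclins, Plk1 and Bub1 were among the genes that fell. In High-VCR against ALL, 19 of the 42 fell and 3 rose, where 30.5% of all genes fell and 42.4% rose. The shares of the members were 45.2% and 7.14%, and their median was -0.65 against 0.16 for all genes. Whether the counts of the 2 engrafted groups differ was not tested. With only the groups compared in each fit, 28 members were called in High-VCR against ALL, 25 in Low-VCR against ALL and 27 in VCR against NC. The shares of all genes called in these smaller fits are not given here, so these counts have no background. Plk1 was at 32.9, 98.9, 57.4 and 34.6 CPM in High-VCR, below all ALL libraries (-1.53 ± 0.37, adjusted p = 0.00141). Ccnb1 was at 127, 143, 146 and 131 CPM in ALL and 34.7, 67, 51.9 and 35.1 CPM in High-VCR (-1.54 ± 0.28, adjusted p = 9.61e-05). Bub1 was at 100.2, 108.6, 91.7 and 98.5 CPM in ALL and 23.6, 64.1, 45.6 and 29.8 CPM in High-VCR (-1.29 ± 0.40, adjusted p = 0.00804). In these 3 genes High-VCR 2 was the highest of its group and still below ALL.

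Ccnb2 (-1.58 ± 0.42), Plk4 (-1.17 ± 0.33), Incenp (-1.05 ± 0.28), Cenpe (-1.04 ± 0.27) and Birc5 (-1.14 ± 0.42) fell too. In some genes High-VCR 2 stood at the level of untreated testis: Aurka was at 36.9, 180, 74.5 and 58.6 CPM in High-VCR and 179 to 215 CPM in ALL, and the groups overlapped (-1.15 ± 0.47, adjusted p = 0.0369). The same overlap was seen for the falls of Espl1, Nusap1 and Mad2l2. Without High-VCR 2, 32 of the 42 were called, and without High-VCR 1 or without High-VCR 4, 13. The 10 called genes that lost their call without one or more single libraries were Mad2l1, Mad2l2, Cenpf, Spc25, Aurka, Birc5, Ccna1, Cdc20, Espl1 and Nusap1.

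The 3 that rose in High-VCR were Cenpa (1.54 ± 0.31, adjusted p = 0.000268), Cdc25b and Mad2l1, and each had a change below 0 on the Sertoli cell scale (-0.48, -0.82 and -1.61). Cdc25b, a phosphatase that activates Cdk1, was at 2.72, 1.42, 1.66 and 1.77 CPM in ALL and 4.61, 2.47, 5.65 and 4.74 CPM in High-VCR (1.21 ± 0.42, adjusted p = 0.0169). High-VCR 2 lay below ALL 1, and the other High-VCR libraries were above all ALL libraries. Mad2l1, the checkpoint effector, moved little, from 5.74 to 7.42 CPM to 7.48 to 8.95 CPM (0.34 ± 0.15, adjusted p = 0.0448). Its call was lost without 6 of the 8 single libraries, all but ALL 3 and High-VCR 4.

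**Figure D3:**
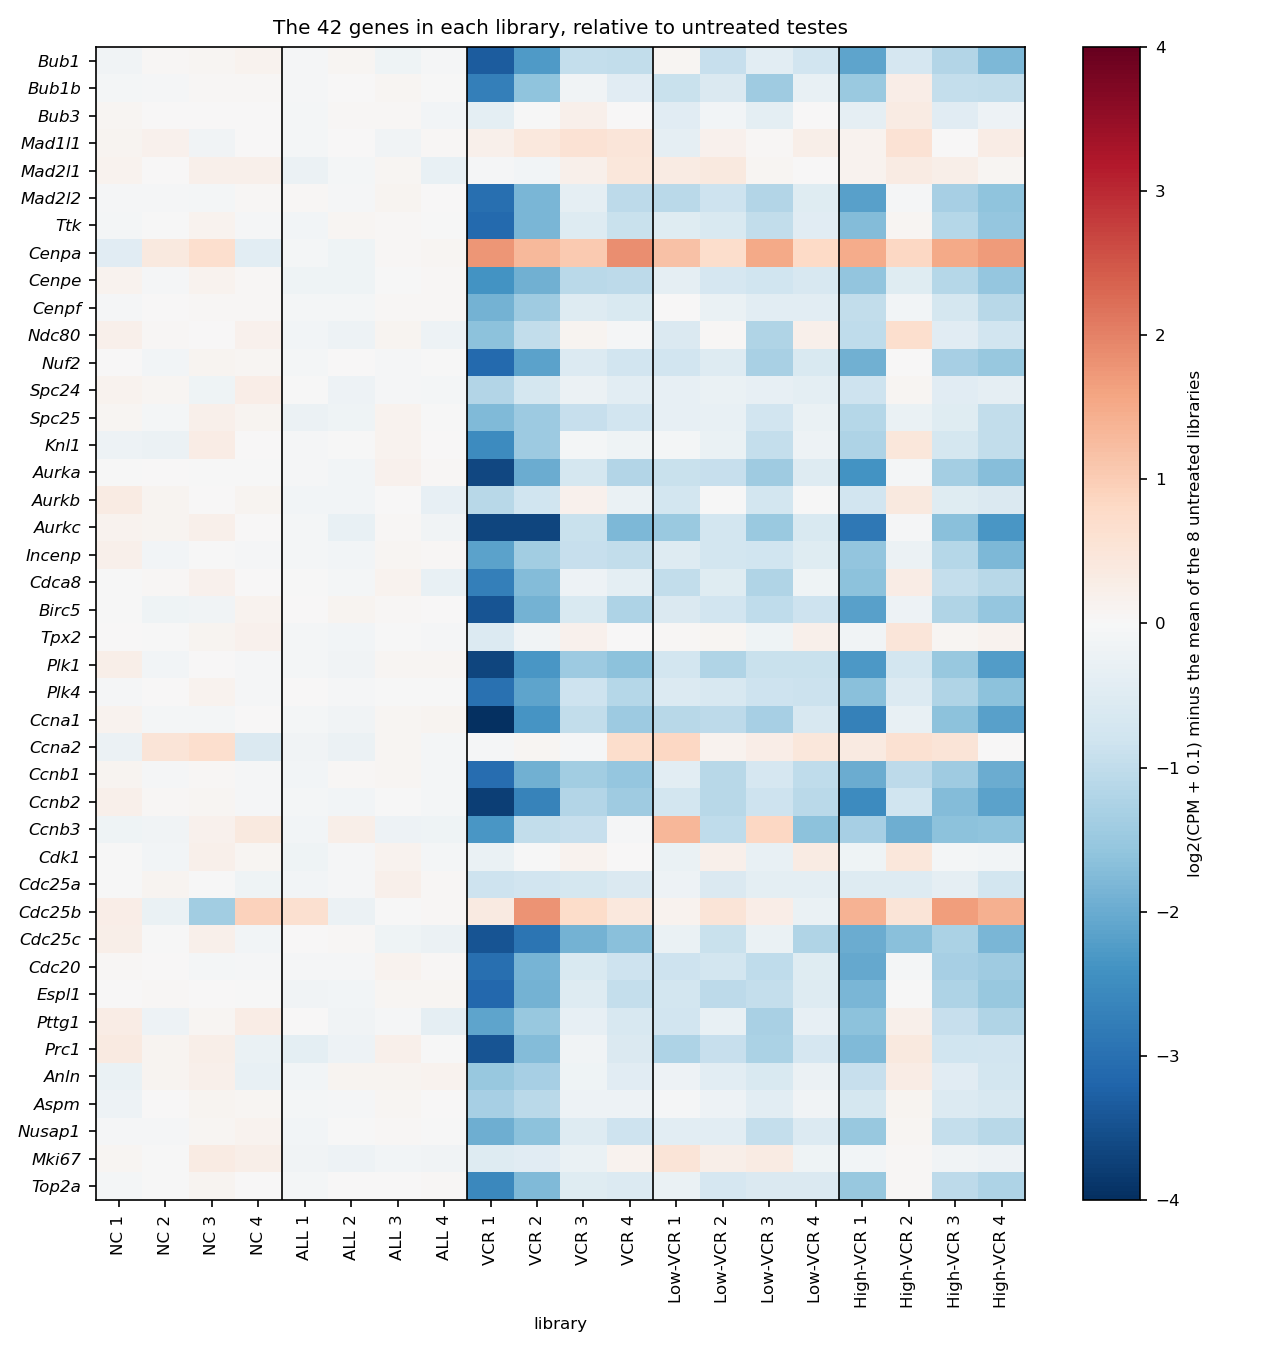
Colour gives log2(CPM + 0.1) of each of the 42 genes (rows) in each library (columns), minus the mean of the 8 NC and ALL libraries; blue is lower and red higher. VCR 1, VCR 2 and High-VCR 1 are the bluest columns, High-VCR 2 is nearly white, and the row of Ccnb3 is reddest in Low-VCR 1 and Low-VCR 3; the red row of Cenpa becomes lower than untreated on the Sertoli cell scale.

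Between the low and high infiltration groups, the members were called at about the share of all genes. In High-VCR against Low-VCR, Ccnb3 and Cdc25c were lower (4.76% of the 42) and none was higher, where 4.69% of all genes were lower and 3.13% higher. The members' median was -0.20. Cdc25c, the phosphatase that activates Cdk1 at the entry to M phase, was at 27.3, 17.6, 27.2 and 14.2 CPM in Low-VCR and 8.21, 10.3, 13.5 and 9.15 CPM in High-VCR, without overlap (-1.07 ± 0.30, adjusted p = 0.0385). Ccnb3, a cyclin of meiotic cells, was at 10.9, 2.07, 7.68 and 1.31 CPM in Low-VCR and 1.63, 1.04, 1.31 and 1.34 CPM in High-VCR (-2.04 ± 0.53, adjusted p = 0.0311), and the groups overlapped. Both genes were high in Low-VCR 1 and Low-VCR 3. Neither call stood with only the groups compared, with only the treated libraries or in the absence of both Low-VCR 1 and Low-VCR 3, and no member was called without Low-VCR 1, Low-VCR 3, High-VCR 1 or High-VCR 4. Without High-VCR 2 there were 7 calls, and without High-VCR 3 there was 1.

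The same 2 libraries differed from Low-VCR 2 and 4 in some marker genes of germ cells and of other cells, chosen here after their values were seen. Dmc1, the meiotic recombinase, was at 28, 9.51, 25.1 and 5.08 CPM in Low-VCR 1 to 4, Prdm9, which marks recombination sites, at 25.0, 12.3, 24.0 and 8.64 CPM, and Stra8, which starts meiosis, at 18.6, 11.2, 22.0 and 8.86 CPM. Spo11, which makes the breaks of early meiosis, ran the other way at 10.8, 26.4, 5.84 and 26.1 CPM. Summed over the 10 leptotene and zygotene genes, the 4 libraries stood at 732, 726, 553 and 604 CPM, which did not set Low-VCR 1 and 3 apart. Of those 10 genes, 4 were higher in both of these libraries than in Low-VCR 2 and 4, and 2 were lower in both. Among round spermatid genes 7 of 8 were higher in both, such as Acrv1 (178, 61.5, 203 and 29.2 CPM). All 8 elongating spermatid genes were lower in both, as were 4 of 9 pachytene and diplotene genes, such as Piwil1 (180, 433, 132 and 534 CPM), with 1 of the 9 higher. Of 7 genes of differentiating spermatogonia 5 were higher in both and 0 lower, and of 10 of undifferentiated ones 5 were higher and 2 lower. Lists of somatic and blood cells split as well. Of 8 Leydig cell genes 3 were higher and 2 lower, of 8 macrophage genes 2 and 1, and of 4 erythroid genes 1 and 3. Of 11 Sertoli cell genes 0 were higher and 2 lower. The members went both ways. Ndc80 (33.5, 52.5, 22.2 and 58.6 CPM), Bub1b (82.7, 103.5, 57.7 and 125 CPM) and Cdca8 (34.5, 48.8, 29.4 and 59.9 CPM) were among those low in Low-VCR 1 and Low-VCR 3. Bub1 (108.4, 54.4, 76.5 and 59.8 CPM) and Ccnb2 (137, 105.9, 128 and 107.4 CPM) were among those higher in both. Ccnb1, Mki67 and Cenpa were higher in both as well, and Plk1 by a narrow margin. The share of all genes that set Low-VCR 1 and 3 apart in this way is not given here, so the counts by list have no background. The part of these marker shifts in the calls of Ccnb3 and Cdc25c was not tested.

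Low-VCR was also set against VCR, 2 treated groups of which 1 has leukaemia cells on its labels. The library numbers of these groups do not overlap either, and the part of library number in what follows was not tested. In Low-VCR against VCR, 9 of the 42 were higher and 1 lower, where 16.7% of all genes were higher and 13.6% lower, so 21.4% and 2.38% of the members. The higher genes were Cdc25c (1.73 ± 0.31, adjusted p = 0.00282), Ccnb1 (1.07 ± 0.27), Plk1 (1.14 ± 0.37), Bub1 (1.14 ± 0.40), Cenpe (0.88 ± 0.27), Cenpf (0.74 ± 0.25), Spc25 (0.79 ± 0.23), Cdc25a (0.34 ± 0.11) and Mki67 (0.49 ± 0.15), and the lower one was Mad1l1 (-0.38 ± 0.14). Cdc25c was at 2.9, 4.25, 8.72 and 10.1 CPM in VCR, below all Low-VCR libraries. The count was 3 without VCR 1 or without Low-VCR 1, 2 without VCR 2, 4 without Low-VCR 3, and 16 without VCR 3. Cdc25c and Ccnb1 passed in each of these fits. With only VCR and Low-VCR fitted none of the 10 was called, and with only the treated libraries Cdc25c alone was. With Sertoli cell scaling 4 were called, all higher, where 2652 of all genes were higher and 386 lower. In High-VCR against VCR, none of the 42 passed in edgeR (0.00605% of all genes did) and 2 had an unadjusted p under 0.05. Their median was 0.29, with estimates from -0.79 to 0.73.

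Whether the response to vincristine itself differed was asked by the difference of the fold changes, Low-VCR against ALL minus VCR against NC. The first response comes from libraries of higher number than the second, and the part of library number was not tested. Cdc25c (1.89 ± 0.42, adjusted p = 0.0337) and Mki67 (0.81 ± 0.21, adjusted p = 0.0425) passed, both in the higher direction. They were 4.76% of the members, near the 3.81% of all genes that passed higher, while 1.26% of all genes passed lower. Cdc25c changed by -2.41 ± 0.31 in VCR against NC and by -0.53 ± 0.29 in Low-VCR against ALL, and Mki67 by -0.40 ± 0.15 and 0.40 ± 0.15. Neither passed when any single NC or ALL library was left out, nor without VCR 2, Low-VCR 1 or Low-VCR 3, and 5 members passed without VCR 3. Without Low-VCR 2, 1 member passed. For High-VCR the same difference called none of the 42 in edgeR (0.00605% of all genes), with 1 at an unadjusted p under 0.05.

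The germ cell paralogs were set beside their mitotic relatives within each library, since a ratio of 2 genes in 1 library does not depend on the scale between libraries. In VCR against NC, 3 of the 4 paralogs fell: Ccna1 (-1.88 ± 0.54), Aurkc (-2.18 ± 0.59) and Cdc25c (-2.41 ± 0.31, adjusted p = 2.6e-06), with Ccnb3 at -0.98 ± 0.52 (adjusted p = 0.0948). In High-VCR against ALL 3 of 4 fell, Ccna1 (-1.40 ± 0.53), Ccnb3 (-1.62 ± 0.54) and Cdc25c (-1.60 ± 0.30), while Aurkc (-1.23) did not pass. In Low-VCR against ALL none passed. Of all genes, 35.6% fell in VCR against NC, 30.5% in High-VCR against ALL and 15.2% in Low-VCR against ALL. A share of only 4 genes is coarse. The other 38 members without the paralogs had 26 falls (68.4%) and 2 rises (5.26%) in VCR against NC, with a median of -1.06. Of all genes 42.1% rose there.

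Ccna1, which spermatocytes need for the meiotic divisions, was at 59.8, 51.6, 51.0 and 54.8 CPM in NC and 1.83, 10.5, 27.1 and 19.5 CPM in VCR. Ccna2, used in mitosis, was at 7.31, 12.3, 13.7 and 5.78 CPM in NC and 8.3, 9.04, 8.33 and 14 CPM in VCR. Counts of Ccna1 summed over a group were 5.68 times those of Ccna2 in NC and 6.65 times in ALL, but Low-VCR had 2.27 times, High-VCR 1.81 times and VCR 1.54 times as many. The mean log2 ratio differed by -2.50 (VCR against NC), -1.53 (Low-VCR against ALL) and -2.16 (High-VCR against ALL). In each of these every treated library was below every untreated one, which gives the smallest p that an exact two-sided permutation test of 4 against 4 allows (p = 0.0286, adjusted 0.0381 over 12 tests).

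Aurkc, the Aurora kinase of meiotic chromosomes, was at 6.7, 6.46, 6.88 and 6.08 CPM in NC and 0.381, 0.38, 3.21 and 1.67 CPM in VCR. Its log2 ratio to Aurkb differed by -2.08, -0.73 and -1.43 in the same 3 comparisons, each with complete separation (exact permutation p = 0.0286, adjusted 0.0381). Set against Aurka, the other mitotic Aurora kinase, the log2 ratio of Aurkc differed by -0.86 in VCR, with all VCR libraries below NC, but by only -0.04 in Low-VCR and -0.27 in High-VCR, where the libraries overlapped those of ALL (no test was run on this ratio). The estimates in engrafted mice were thus far from 0 against Aurkb and nearer to it against Aurka. In Low-VCR neither Aurkc nor Aurkb had passed alone, at -0.94 ± 0.57 for Aurkc and -0.21 ± 0.28 for Aurkb. The log2 ratio of Cdc25c to Cdc25b differed by -3.54 in VCR and -2.78 in High-VCR with complete separation (exact permutation p = 0.0286, adjusted 0.0381). It differed by -0.61 in Low-VCR, where the groups overlapped (exact permutation p = 0.114, adjusted 0.137). Against Cdc25a the log2 ratio of Cdc25c differed by -1.88 in VCR and -1.06 in High-VCR, both with complete separation, and by -0.16 with overlap in Low-VCR (not tested).

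Ccnb3 to Ccnb1 behaved differently. Its log2 ratio was higher by 0.82 in VCR than in NC, with every VCR library above every NC library (exact permutation p = 0.0286, adjusted 0.0381), since Ccnb1 was lower by more than Ccnb3. In Low-VCR the difference from ALL was 0.72 with overlap (exact permutation p = 0.343, adjusted 0.374). The Low-VCR libraries split, at -3.23 and -3.48 in Low-VCR 1 and 3 and at -4.92 and -5.66 in Low-VCR 2 and 4. High-VCR differed from ALL by -0.03 (exact permutation p = 0.971). Against Ccnb2 the differences for Ccnb3 were 1.16, 0.79 and 0.11 in VCR, Low-VCR and High-VCR, each with overlap (not tested). The 4 tested ratios did not all move in 1 direction.

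**Figure D4:**
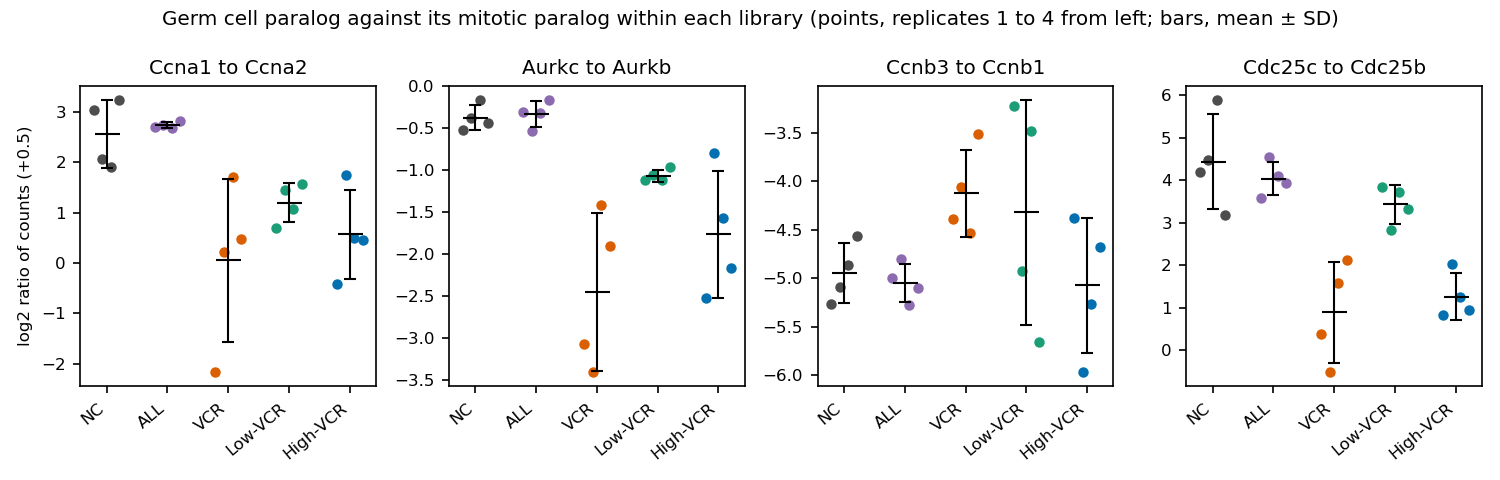
Log2 ratio of the counts of each germ cell paralog to a mitotic relative (y axis, 0.5 added to each count) in each library (points, replicates 1 to 4 from left; bars, mean ± SD) by group on the x axis. Treated libraries lie below untreated ones for Ccna1 to Ccna2 and Aurkc to Aurkb (differences from -2.50 to -0.73), Cdc25c to Cdc25b stays near untreated in Low-VCR (-0.61), and Ccnb3 to Ccnb1 is higher in VCR (0.82).

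Genes of the neighbouring steps of the cell cycle, taken from lists outside the 42, did not all move with them. In VCR against NC, the cytokinesis list had 8 of 8 lower, condensins 6 of 8 lower and 1 higher, the inner kinetochore and its adaptors 15 of 27 lower and 1 higher, and mitotic entry 9 of 16 lower and 2 higher, beside the 35.6% lower and 42.1% higher of all genes. Iqgap3 (-1.31 ± 0.20) and Kif23 (-1.07 ± 0.19), both of cytokinesis, Mastl, which keeps Cdk1 substrates phosphorylated (-1.32 ± 0.16), and Wee1, the kinase that inhibits Cdk1 (-1.01 ± 0.13), fell. The meiotic cell cycle list had 3 of 7 tested genes lower, among them Mos, the meiotic kinase, from a mean of 3.97 CPM in NC to 0.275 in VCR (-3.81 ± 0.42, adjusted p = 4.22e-07), and Haspin (-2.34 ± 0.56). Zw10 (-0.69 ± 0.13), Cenpk (-1.49 ± 0.29) and Smc2 (-0.96 ± 0.20) fell in their lists. Ncaph2, the condensin gene lowest in adjusted p, rose from a mean of 43.2 to 81.1 CPM (0.91 ± 0.16, adjusted p = 5.61e-05). It also rose in Low-VCR (0.83 ± 0.16) and High-VCR (1.07 ± 0.16) against ALL.

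The lists of the earlier phases lay near the shares of all genes (42.1% higher and 35.6% lower). Of 18 cyclins, kinases and E2F genes of the G1 and S phases, 6 rose (33.3%) and 6 fell in VCR against NC, and of 22 replication genes 8 rose (36.4%) and 7 fell (31.8%). Ccnd2, cyclin D2, rose from a mean of 0.848 to 6.24 CPM (2.84 ± 0.30) and Cdk4, its partner, from 44.5 to 107 CPM (1.27 ± 0.15). The CDK inhibitors Cdkn1a (p21, 2.15 ± 0.23) and Cdkn1b (p27, 1.57 ± 0.18) rose, 3 of their 7 listed genes being higher (42.9%) and 2 lower (28.6%). Tk1 (2.22 ± 0.19) and Cdt1 (1.97 ± 0.17), both of S phase, rose too. In the anaphase-promoting complex 10 of 18 were higher, such as Anapc7 (1.21 ± 0.11), and 5 lower, such as Ube2c, its ubiquitin-conjugating enzyme (-1.59 ± 0.17). Cdkn1a, Cdkn1b, Ccnd2, Cdk4, Tk1, Cdt1 and Anapc7 also rose when Low-VCR or High-VCR was set against ALL. These genes moved in the direction of the somatic marker sums given above, and the part of those sums in their rise was not tested. On the Sertoli cell scale the median of all genes shifted by -1.89 in VCR against NC, a larger step than the rises of Cdk4, Cdkn1b, Anapc7 and Ncaph2.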

How the data were processed

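Poly(A)-selected RNA of 20 mouse testes (5 groups of 4, grouped by sample title) had been made into directional libraries, per the labels' protocols. The authors deposited raw whole-number counts for each gene symbol. The submitters' processing notes list Trimmomatic (0.39), STAR (2.7.10b), featureCounts from Subread (2.0.3), DESeq2 (1.36.0) and the genome build GRCm39 (mm39). The annotation, the strand setting and any removal of human reads are not given in the sources used here, so reads of overlapping or antisense genes and of near-identical copies may be divided in unknown ways.

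The analysis used edgeR 4.0.16 under R 4.3.3. Of 22066 symbols, 1207 had no count and 16534 passed filterByExpr (minimum count 10). A single quasi-likelihood fit of 5 group means (TMM scaling, robust, 15 residual degrees of freedom) gave 7 comparisons and 2 differences of fold changes. The threshold was an adjusted p (Benjamini-Hochberg) under 0.05. CPM values are TMM scaled. Paralog ratios were log2 ratios of counts with 0.5 added, tested by exact permutation. Every member was accounted for, and each other list gave the 2 called genes lowest in adjusted p in VCR against NC. Alternatives were other scalings, filters, DESeq2 1.42.0, limma voom (limma 3.58.1), a replicate block, fits of fewer groups, and each library left out. The fit was also run on simulated data with few genes changed, equally in both directions, and the same spread for every gene and group. That simulation cannot speak to the choice of scale or to groups of unequal spread. The members, lists and tests were chosen with earlier results of these data known. Depth was 9.43 to 16.4 M (mega) counts per library, and counts near 5, as for Aurkc, are imprecise.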

Additional observations from a re-analysis of the deposited data

Results flagged for a closer look

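Over the 42 genes and 5 groups, 210 groups of 4 values were examined for a library far from the other 3, and 6 passed Dixon's critical value of 0.829, where chance alone gives about 1 in 20. These were Bub3 in NC 1 (83.9 CPM), Spc25 in Low-VCR 3 (4.26 CPM, lowest), Ccna2 in VCR 4 (14 CPM), Ccnb3 in ALL 2 (5.06 CPM), Cdk1 in High-VCR 2 (39.4 CPM) and Anln in ALL 1 (48.5 CPM, lowest). The response to vincristine passed as different between Low-VCR against ALL and VCR against NC for Cdc25c (1.89 on the log2 scale) and Mki67 (0.81). Of all genes 3.81% passed higher by the same test, near the 4.76% of the members. In 27 alternatives the call of Cdc25c was lost in 14 and that of Mki67 in 19. Both were lost whenever a single NC or ALL library was left out.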

How the results depend on the processing

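The alternatives fitted to VCR against NC gave 25 to 41 called members (31 as reported). Where a result moved, the cause was not tested. For most of these alternatives the share of all genes called is not given here, so those counts have no background. Low-VCR against ALL (5 called) gave 18 with DESeq2 size factors in edgeR, 8 with upper-quartile scaling, 40 with Sertoli cell scaling, 3 without a filter, 22 with DESeq2, 25 with only the groups compared, 11 with the range of library numbers as a term and 2 to 4 without single libraries. High-VCR against ALL (22) gave 40 with Sertoli cell scaling and 13 to 32 without single libraries. High-VCR against Low-VCR (2) gave 1 with Sertoli cell scaling, 1 with limma voom, 0 with only the groups compared or only the treated libraries, 0 without both Low-VCR 1 and Low-VCR 3, and 0 to 7 without single libraries. Low-VCR against VCR (10) gave 4 with Sertoli cell scaling, 0 with only the groups compared, 1 with only the treated libraries, 1 without both Low-VCR 1 and Low-VCR 3, and 2 to 16 without single libraries. The difference of responses for Low-VCR (2) gave 1 with library size alone, upper-quartile scaling, limma voom or only the groups compared, 4 with DESeq2, 0 with Sertoli cell scaling or without both Low-VCR 1 and Low-VCR 3, and 0 to 5 without single libraries. The fits of only the treated libraries and without Low-VCR 1 and Low-VCR 3 were chosen after seeing the data.

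Sertoli cell scaling shifted the median of all genes by -1.89 (VCR against NC), -1.74 (Low-VCR against ALL) and -1.96 (High-VCR against ALL), and library size alone by 0.39, 0.26 and 0.29. With Sertoli cell scaling 12530, 12979 and 12715 of all 16534 genes were lower in the same 3 comparisons. On the Sertoli cell scale the change of Mad1l1 in VCR was -1.49, that of Cenpa -0.41 (VCR), -0.54 (Low-VCR) and -0.48 (High-VCR), that of Mki67 in Low-VCR -1.32, that of Mad2l1 in High-VCR -1.61 and that of Cdc25b in High-VCR -0.82.

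Replicate numbers did not pair the libraries: 5 of 40 same-number pairs correlated above 0.1, from -0.38 to 0.53, and 4 libraries matched best with their own number. With the replicate block, Low-VCR against ALL had 3 called members, High-VCR against Low-VCR 0 and the difference for Low-VCR 0.

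Without single libraries a ratio has 3 against 4 values and cannot pass. Ranges in VCR, Low-VCR and High-VCR were -3.05 to -1.76, -1.65 to -1.37 and -2.55 to -1.83 for Ccna1 to Ccna2, and -2.42 to -1.76, -0.80 to -0.68 and -1.76 to -1.18 for Aurkc to Aurkb. For Cdc25c to Cdc25b they were -3.95 to -3.05, -0.76 to -0.41 and -3.03 to -2.61, and for Ccnb3 to Ccnb1 0.62 to 0.96, 0.36 to 1.17 and -0.26 to 0.27, the last turning above 0 without ALL 2 (0.05), High-VCR 2 (0.27) or High-VCR 3 (0.04). Adding 0.1 or 1 in place of 0.5 changed no direction and no call of a ratio. Low counts limit Aurkc, Cenpa and Cdc25b most.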
